A study of Mus musculus with 36 samples.

Results

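The genes described here are the 7 subunit genes of the GABA-A receptor that encode its beta 1 and beta 2 subunits (Gabrb1, Gabrb2), its gamma 1 and gamma 3 subunits (Gabrg1, Gabrg3) and its rarer delta, epsilon and theta subunits (Gabrd, Gabre, Gabrq). They were chosen by symbol, and all 7 were found among the 19025 genes of the deposited table. RNA was measured in whole tissue of 6 brain regions, each with 3 libraries from mice carrying a knock-in at Maoa (KI) and 3 from wild-type mice (WT), 36 libraries in all. Maoa encodes monoamine oxidase A, the X-linked enzyme that breaks down serotonin, noradrenaline and dopamine. All mice were adult C57 animals aged 6 to 7 weeks, and both genotypes were sampled in the same regions. The labels give the regions only in short form. STR is read here as striatum, Nac as nucleus accumbens, SN as substantia nigra, VTA as ventral tegmental area, PFc as prefrontal cortex and HP as hippocampus. The labels give neither the substrain nor the sex, and they do not say whether the libraries of a group came from separate animals or from pools. A p-value is therefore relative to variation among these libraries, some of which may be technical.

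GABA-A receptors are chloride channels that open when GABA, the main inhibitory transmitter of the brain, binds to them. Each receptor is built from several subunits around a pore, usually alpha and beta subunits joined by a gamma or a delta subunit. The beta subunits form the GABA site together with alpha subunits, gamma subunits hold receptors at synapses and take part in the benzodiazepine site, and delta-containing receptors lie outside synapses, where they respond to low ambient GABA and to neurosteroids. The epsilon and theta subunits are known mainly from the hypothalamus and from monoamine nuclei of the brainstem.

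Library totals lay between 15145631 and 18863503 estimated counts. Maoa ran from 37.7 to 97.4 CPM (counts-per-million, with TMM scaling between libraries) in KI libraries and from 34 to 78 CPM in WT libraries. It was called in no region by edgeR's quasi-likelihood test (smallest adjusted p = 0.284) or by DESeq2 (smallest adjusted p = 0.0617, in STR at a log2 fold change of 0.45); its unadjusted edgeR p was 0.00295 in STR and 0.0477 in VTA, with the KI mean higher in both. Its level was therefore no check of the genotype labels. In 8 of the 36 libraries the marker genes of the labelled region were low and those of another region were high. KI libraries HP 2 and SN 2 and WT library VTA 3 had high striatal markers, KI library Nac 2 hippocampal, KI library SN 1 cortical, KI library STR 3 thalamic and habenular, and KI library Nac 1 and WT library Nac 2 midbrain dopamine markers. Their own region's marker score, the mean log2(CPM + 1) of its markers, was 2.97 in HP, 2.83 to 3.69 in Nac, 4.5 in STR, 1.57 to 1.7 in SN and 1.69 in VTA, against at least 5.94, 7.55, 6.37, 4.73 and 5.26 in the other libraries of those regions in the same order. KI library PFc 1 also had a striatal score (6.48) above its cortical score (5.84), and WT library SN 2 a cortical score (5.46) above its dopamine neuron score (4.73); both were kept. The choroid plexus and hindbrain glycine lists were not among the lists compared. Choroid plexus markers summed to 3610 to 10700 CPM in KI STR and 11100 to 16500 CPM in WT STR. Their highest sum elsewhere was 3090 CPM, in KI library SN 1. Hindbrain glycine markers summed to 40.7 to 162 CPM in WT SN and 8.62 to 94.2 CPM in KI VTA, against 0 to 0.226 CPM in WT HP. The part of such tissue in the regional levels was not tested. Results are given with all libraries and, where they rest on the 8, without them. Because these are bulk samples, fewer cells of a type and less RNA per cell cannot be told apart.

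Per length, the 7 genes spanned a wide range. Over the 36 libraries the median level in TPM (transcripts-per-million, a length-scaled unit) was 62.5 for Gabrd, 49.4 for Gabrb2, 19.97 for Gabrg1, 17.49 for Gabrb1, 5.36 for Gabrg3, 2.84 for Gabrq and 1.07 for Gabre. Gabrb2 or Gabrd had the highest mean TPM of the 7 in every group, and Gabre the lowest. Gabrd varied most among the abundant members, from 3.54 to 169 TPM, whereas Gabrb2 ran from 29.89 to 108 TPM. Gabre reached at most 126 counts in a library and had 0 counts in 3 HP libraries (KI HP 3, WT HP 1 and WT HP 3), where 3 counts is the limit that a count of 0 allows for counting error alone.

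**Figure D1:**
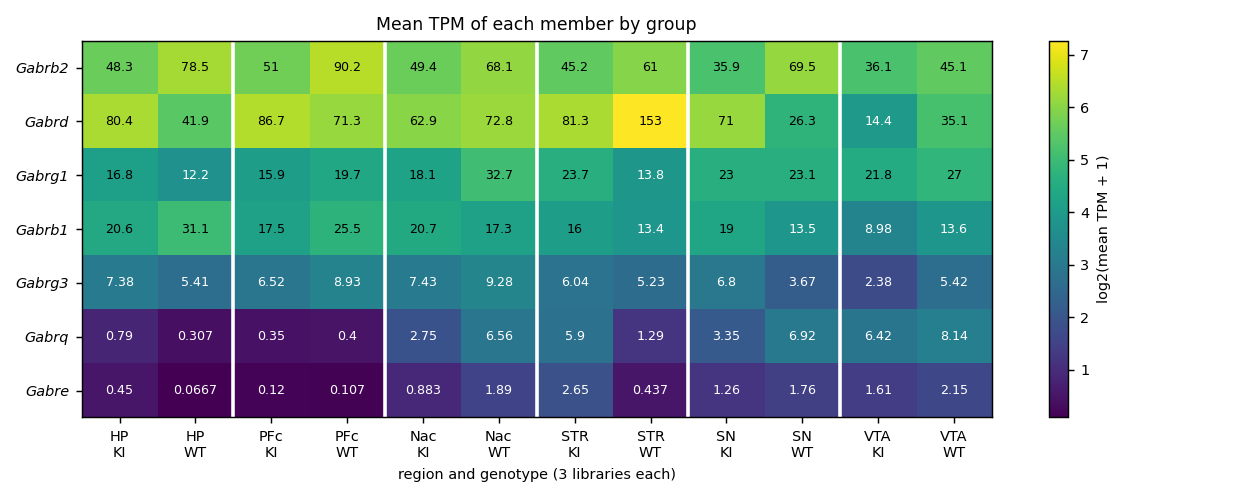
Mean TPM of each member (rows) in each region and genotype (columns, 3 libraries each, KI left of WT), coloured on a log2(mean TPM + 1) scale. Gabrb2 and Gabrd fill the upper rows, with Gabrd at 153 TPM in WT STR, and Gabre stays under 3 TPM in all groups.

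In the genome (GRCm38.p6), 6 of the 7 members lie in clusters with other GABA-A subunit genes within 2000 kb. Gabrg1 (chromosome 5, 70751047 to 70842617) and Gabrb1 (chromosome 5, 71657921 to 72149572) flank Gabra2 and Gabra4, Gabrb2 (chromosome 11, 42419515 to 42632591) neighbours Gabra6, and Gabrg3 (chromosome 7, 56716463 to 57387215) neighbours Gabra5. Gabre (chromosome X, 72256926 to 72274828) and Gabrq (chromosome X, 72825163 to 72842607) lie 550 kb apart on either side of Gabra3. Gabrd (chromosome 4, 155384979 to 155398098) has no other subunit gene within that distance. Gabrb1 overlaps Gabra4 by 388 bases and Gabrd overlaps Cfap74 by 6000 bases, and whether counting used strand is not given in the sources used here, so reads from those overlaps could have been assigned to either gene.

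Levels were first compared between regions within a genotype. By edgeR's F test over the 18 WT libraries, 4 of the 7 members differed between regions at an adjusted p under 0.05 (Gabrb1, Gabrg1, Gabre and Gabrq), beside 48% of all genes tested. DESeq2 called 5, adding Gabrg3, beside 52.3% of genes. Without the 2 WT libraries with markers of another region edgeR called 6, all but Gabrb2, beside 70% of genes. Over the 18 KI libraries edgeR called 0 of 7 members, beside 12.6% of genes, with 3 of 7 at an unadjusted p under 0.05 (4721 of all 15084 genes). DESeq2 called 2, Gabre and Gabrq, beside 25.5% of genes. Without the 6 KI libraries edgeR called 5 (Gabrb1, Gabrg3, Gabrd, Gabre and Gabrq), beside 50.5% of genes. Regional differences were thus common among all genes, and the members' counts say nothing particular to them. In contrasts of 1 WT region with the mean of the other 5, the shares of all genes called were 34.4% in HP, 20.7% in STR, 28.5% in PFc, 7.61% in VTA, 7.91% in SN and 1.2% in Nac; member values from these contrasts are given below.

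Between genotypes, edgeR's quasi-likelihood test called 0 members and 0% of all genes in each of the 6 regions and in the sums over them, and 0% for genotype by region. Members at an unadjusted p under 0.05 numbered 4 of 7 tested in STR (1580 of all 14658 genes), 3 of 6 in HP (2012 of 14144), 2 of 6 in PFc (2562 of 14167), 2 of 7 in SN (2531 of 14418) and 1 of 7 in the sums (3210 of 16171). They numbered 0 of 7 in both Nac (146 of 14333) and VTA (1879 of 14490). DESeq2, run as an alternative, called 4 of 7 members in STR, where it called 1.38% of all genes, and 1 of 7 in SN, where it called 6.26%. It called no member in HP (2.2% of genes), PFc (2.74%), Nac (0.0112%) or VTA (1.25%). In the sums it called 1 member, Gabrb2, beside 8.88% of genes. The members' median log2 fold change by edgeR was 0.24 in STR, 0.11 in SN, 0.54 in HP, -0.34 in VTA, -0.38 in Nac and -0.19 in PFc, beside medians over all genes tested of 0.00573, 0.0153, 0.00165, -0.00856, 0.0211 and 0.0286 in the same order. Without the 8 libraries, edgeR still called no member in STR (0% of genes), SN (0%), Nac (0%), HP (0.42%) or VTA (5.72%). DESeq2 without them called 4 members in STR beside 1.4% of genes, 3 in HP beside 6.4%, 1 in SN beside 1.41%, 0 in Nac beside 2.81% and 0 in VTA beside 13.1%. PFc held none of the 8.

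**Figure D2:**
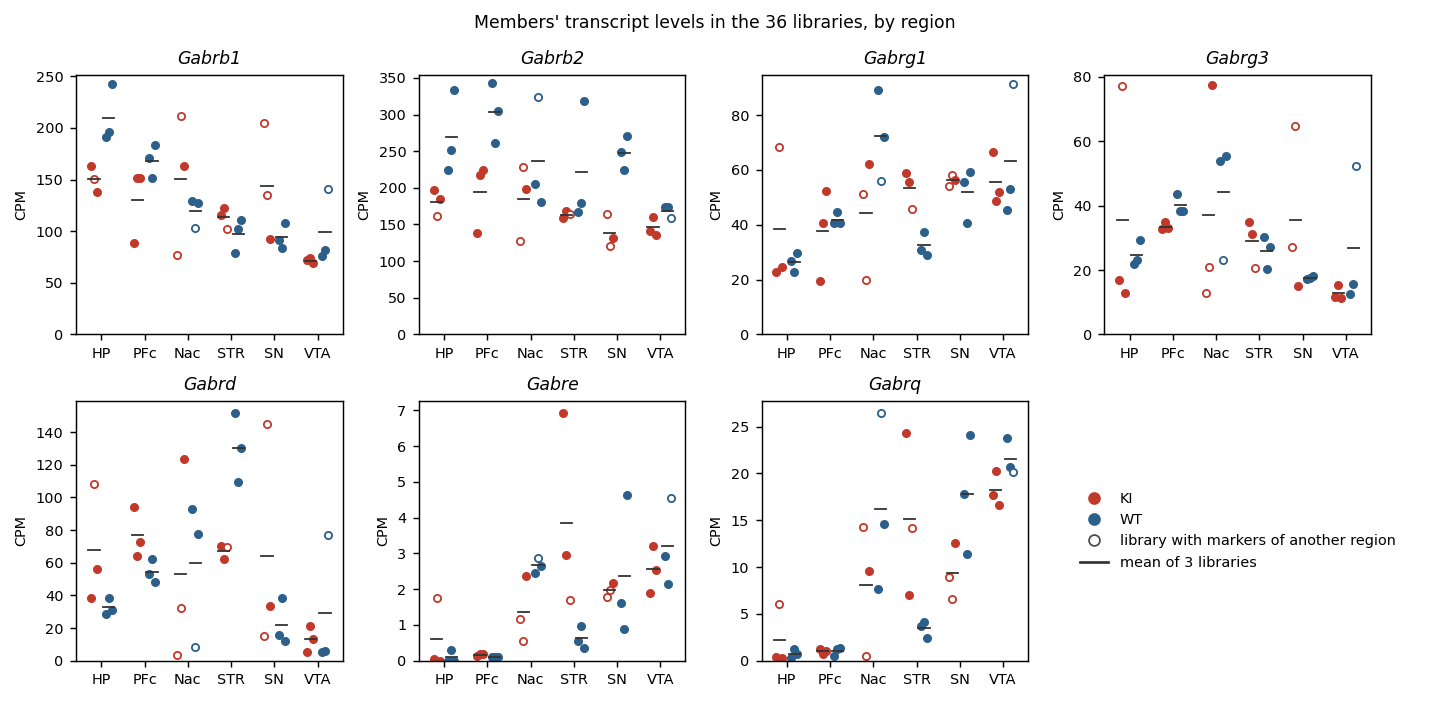
CPM of each member in every library, by region, with KI (red) left of WT (blue); lines are means of 3 libraries and open circles are the 8 libraries with markers of another region. In STR the 3 KI libraries lie above the 3 WT libraries for Gabrg1, Gabre and Gabrq and below them for Gabrd, and open circles make up many of the extreme values elsewhere.

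Gabrb2, which encodes a beta subunit widely used in synaptic receptors, had a lower KI than WT mean in all 6 regions. Its 300-base RefSeq promoter window (250 bases before to 50 after the first of its listed starts, GRCm38.p6, chr11:42420190-42420489, plus strand) is shown because of that common direction, with a TATA box (TATAAA) and a GC box (GGGCGG or its reverse complement) in capitals.
Gabrb2: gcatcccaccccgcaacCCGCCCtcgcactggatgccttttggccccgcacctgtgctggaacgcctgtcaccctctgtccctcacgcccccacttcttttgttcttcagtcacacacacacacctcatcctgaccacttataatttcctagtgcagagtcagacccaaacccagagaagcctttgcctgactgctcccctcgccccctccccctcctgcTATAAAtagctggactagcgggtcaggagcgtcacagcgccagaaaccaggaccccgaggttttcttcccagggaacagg
The TATA box letters occur on either strand in 13.6% of 32817 such windows of all genes and the GC box letters in 35.6%. The window had 59% G and C and 11 CG pairs, against medians of 52.7% and 7. The CRE letters TGACGTCA (in 1.79% of windows) and the E-box letters CACGTG (in 7.15%) were searched too and are not in it.

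In SN, Gabrb2 measured 165, 121 and 131 CPM in KI libraries and 248, 224 and 270 CPM in WT libraries. All 3 KI libraries were below all 3 WT libraries, a separation shown by 23.9% of genes tested in SN. The log2 fold change was -0.84 ± 0.18 (SE; edgeR's quasi-likelihood test, adjusted p = 0.128), and DESeq2 called it at an adjusted p of 0.00319. Without KI libraries SN 1 and SN 2 it was -0.92 ± 0.22 (edgeR adjusted p = 0.373; DESeq2 adjusted p = 0.0217), with 1 KI library left. In the authors' deposited table the SN value was -0.84 with a q-value of 0.00369. In PFc, Gabrb2 measured 139, 217 and 225 CPM in KI libraries and 343, 262 and 305 CPM in WT libraries, again without overlap (28.5% of genes). The log2 fold change was -0.63 ± 0.21 (edgeR adjusted p = 0.219). In HP it measured 198, 162 and 184 CPM in KI libraries and 224, 251 and 334 CPM in WT libraries, also without overlap (23.9% of genes), at -0.57 ± 0.17 (edgeR adjusted p = 0.307). Without KI library HP 2, the one at 162 CPM, DESeq2 called it lower there (-0.49 ± 0.16, adjusted p = 0.042), beside 6.4% of genes, and edgeR did not. In STR, Nac and VTA the groups overlapped. In VTA Gabrb2 measured 141.6, 160.6 and 135.5 CPM in KI libraries and 174.1, 173.6 and 158.7 CPM in WT libraries. That overlap rested on WT library VTA 3 (158.7 CPM), which had striatal markers. The VTA log2 fold change was -0.22 with all libraries, and ran from -0.27 to -0.15 with each library left out in turn. The STR libraries had 158, 168 and 164 CPM in KI and 168, 179 and 318 CPM in WT, so that 1 WT library carried most of the difference of -0.43 ± 0.24 in log2; leaving out WT library 3 it was -0.07. In Nac the log2 fold change was -0.38 ± 0.33, and 0.0031 ± 0.13 without the 3 libraries with markers of another region.

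Summed over the 6 regions, Gabrb2 had a log2 fold change of -0.54 ± 0.09 (edgeR adjusted p = 0.0543; DESeq2 adjusted p = 1.06e-05). Fitting all 36 libraries with a region term, it was -0.51 ± 0.09 (edgeR adjusted p = 0.00141), the single member called in that fit, which called 9.32% of all genes. The same title numbers recur in all 6 regions and may mark shared mice, which the labels do not say. That fit takes libraries with 1 number as independent, whereas the sums take each number once. Over the 28 libraries without the 8 it was -0.46 ± 0.10 (edgeR adjusted p = 0.004), again the single member called, beside 17.2% of genes. The genotype difference of Gabrb2 did not pass a test of differing between regions (edgeR adjusted p = 0.792). Between regions, the WT mean ran from 169 ± 8.8 CPM in VTA to 303 ± 41 CPM in PFc (SD, n = 3 each), with adjusted p = 0.131 between regions in WT and 0.35 in KI by edgeR. The WT order was PFc, HP, SN, Nac, STR and VTA, and the ranges of neighbours in that order overlapped throughout. Without WT libraries Nac 2 and VTA 3 the order was PFc, HP, SN, STR, Nac and VTA. Nac (181.2 to 205 CPM) then did not overlap VTA (173.6 to 174.1 CPM; n = 2 each).

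Gabrb1, the beta 1 subunit gene, showed a larger spread between regions. In WT it averaged 210 ± 29 CPM in HP, 168 ± 16 in PFc, 120 ± 14 in Nac, 99.4 ± 36 in VTA, 97.3 ± 16 in STR and 94.2 ± 12 in SN (SD, n = 3 each; edgeR's F test between regions, adjusted p = 0.00108). HP and PFc did not overlap each other, nor PFc and Nac, while Nac, VTA, STR and SN did. WT HP was 0.89 ± 0.15 above the mean of the other WT regions in log2 (edgeR adjusted p = 0.000523) and WT PFc 0.52 ± 0.16 above (edgeR adjusted p = 0.0227). The high VTA value rested on WT library VTA 3 (141 CPM, against 75.5 and 81.8 CPM in the other 2), a library with striatal markers. Without it VTA was the lowest region. Without WT libraries Nac 2 and VTA 3, Nac (126.8 to 129 CPM, n = 2) did not overlap STR (79.24 to 111 CPM). SN (83.49 to 107.7 CPM) then did not overlap VTA (75.54 to 81.78 CPM, n = 2), while STR and SN still overlapped.

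Between genotypes, Gabrb1 in HP measured 163, 150 and 138 CPM in KI libraries and 191, 196 and 243 CPM in WT libraries, which did not overlap. Its log2 fold change there was -0.48 ± 0.13 (edgeR adjusted p = 0.305). Without KI library HP 2 it was -0.47 ± 0.14 (edgeR adjusted p = 0.108), and DESeq2 then called it (adjusted p = 0.025). In VTA it measured 72, 73.6 and 68.8 CPM in KI libraries and 75.5, 81.8 and 141 CPM in WT libraries, without overlap (23.4% of genes tested in VTA), at -0.48 ± 0.25 with all libraries and -0.14 ± 0.09 without WT library VTA 3 (edgeR adjusted p = 0.437 and 0.341). In SN the KI libraries had 205, 135 and 92.8 CPM and the WT libraries 91.5, 83.5 and 108 CPM; the 2 high KI values were libraries SN 1 and SN 2, and the log2 fold change was 0.60 ± 0.29 with them and -0.02 ± 0.22 without.

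Gabrg1, a gamma subunit gene of restricted distribution, was one of the members that DESeq2 called in STR. It measured 58.9, 55.8 and 45.9 CPM in KI STR libraries and 30.9, 37.5 and 29 CPM in WT STR libraries. The groups did not overlap, as held for 17.7% of genes tested in STR. The log2 fold change was 0.74 ± 0.14 (edgeR adjusted p = 0.265; DESeq2 adjusted p = 0.00496), and 0.83 ± 0.14 without KI library STR 3 (DESeq2 adjusted p = 0.000982). The authors' deposited table gave 0.73 with a q-value of 0.0059. In the other regions its groups overlapped and its log2 fold change ran from -0.74 ± 0.42 in Nac to 0.55 ± 0.43 in HP. The HP value rested on 1 KI library: KI HP libraries had 22.8, 68.4 and 24.5 CPM and WT HP libraries 26.8, 22.9 and 29.6 CPM, and without KI library HP 2 the log2 fold change was -0.15 ± 0.14. Between WT regions Gabrg1 was highest in Nac (72.5 ± 17 CPM) and lowest in HP (26.4 ± 3.4 CPM; SD, n = 3 each; edgeR adjusted p = 0.00103). The contrast of Nac with the other WT regions was 0.81 ± 0.17 in log2 (edgeR adjusted p = 0.0337) and that of HP -0.94 ± 0.20 (edgeR adjusted p = 0.00213). With all WT libraries, Nac, VTA, SN and PFc overlapped with their neighbours in that order, and so did STR and HP at the lower end. Without WT libraries Nac 2 and VTA 3 the order was Nac, SN, VTA, PFc, STR and HP. Nac (72.19 to 89.27 CPM, n = 2) then did not overlap SN (40.49 to 59.41 CPM). VTA (45.36 to 53.06 CPM, n = 2) did not overlap PFc (40.51 to 44.51 CPM). The Nac contrast was then 1.05 ± 0.13 (edgeR adjusted p = 0.000149), where 2447 of 15240 genes were called.

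Gabrg3, the gamma 3 subunit gene, had its highest HP, SN and VTA values in libraries with markers of another region. In HP it measured 16.9, 77.1 and 12.7 CPM in KI libraries and 22, 23 and 29.3 CPM in WT libraries. The KI library at 77.1 CPM was HP 2, so the log2 fold change was 0.53 ± 0.66 with all libraries and -0.73 ± 0.17 without it (edgeR adjusted p = 0.712 and 0.0714; DESeq2 without it, adjusted p = 0.0107). In SN the KI libraries had 27.3, 64.7 and 14.9 CPM and the WT libraries 17.3, 17.4 and 18 CPM, and the log2 fold change turned to -0.24 ± 0.20 without KI libraries SN 1 and SN 2, against 1.01 ± 0.47 with them. In VTA the KI libraries had 11.7, 15.4 and 11.4 CPM and the WT libraries 12.6, 15.5 and 52.1 CPM, the last being VTA 3. In PFc, where no library was set aside, all 3 KI libraries (32.6, 34.9 and 33 CPM) were below all 3 WT libraries (43.5, 38.2 and 38.4 CPM), at -0.24 ± 0.11 in log2 (edgeR adjusted p = 0.303). Without the 8 libraries WT levels were ordered from 54.6 ± 1.0 CPM in Nac (n = 2) and 40.1 ± 3.0 in PFc to 17.6 ± 0.4 in SN (n = 3 each) and 14.1 ± 2.1 in VTA (n = 2), with STR and HP between them and overlapping each other (edgeR's F test, adjusted p = 2.29e-06, against 0.101 with all WT libraries).

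Gabrd, whose delta subunit serves tonic inhibition outside synapses, was called lower in KI STR by DESeq2. It measured 70.1, 62.1 and 69.6 CPM in KI STR libraries and 152, 109 and 130 CPM in WT STR libraries, with no overlap. The log2 fold change was -0.94 ± 0.14 (edgeR adjusted p = 0.251; DESeq2 adjusted p = 3.82e-05), and -0.97 ± 0.17 without KI library STR 3 (DESeq2 adjusted p = 0.000423). The authors' deposited table gave -0.95 with a q-value of 4.43e-05. The striatal marker list summed to 497 to 2660 CPM in KI STR libraries and 1940 to 6630 CPM in WT STR libraries; all 12 of its genes had a lower KI than WT mean, with a median log2 fold change of -1.16 (-0.72 without KI library STR 3). DESeq2 called 0 of the 12, and none was at 0 in STR. By library, in the order of the Gabrd values above, the striatal sums were 2660, 1970 and 497 CPM in KI and 6630, 1940 and 3180 CPM in WT. Their part in the Gabrd difference was not tested.

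In PFc and HP Gabrd was higher in KI libraries. KI PFc libraries had 94.4, 64.2 and 72.5 CPM and WT PFc libraries 53.2, 62.3 and 48.1 CPM, without overlap, at a log2 fold change of 0.52 ± 0.18 (edgeR adjusted p = 0.224; DESeq2 adjusted p = 0.137). KI library PFc 1, which had striatal markers, was the highest; leaving out each library in turn the value ran from 0.34 to 0.63. KI HP libraries had 38.5, 108 and 56.2 CPM and WT HP libraries 28.9, 38.2 and 31.1 CPM, without overlap, at 1.05 ± 0.37 (edgeR adjusted p = 0.317). Without KI library HP 2, the one at 108 CPM, it was 0.54 ± 0.17 (edgeR adjusted p = 0.127; DESeq2 adjusted p = 0.0708). In Nac, SN and VTA the range within a group was wider than the difference between groups. KI Nac libraries had 3.47, 32 and 124 CPM and WT Nac libraries 92.9, 8.5 and 77.4 CPM, where 3.47, 32 and 8.5 CPM belonged to libraries with markers of another region. KI SN libraries had 15.4, 145 and 33.2 CPM and WT SN libraries 15.6, 38.7 and 11.8 CPM. KI VTA libraries had 5.46, 21.2 and 13 CPM and WT VTA libraries 5.08, 5.68 and 77.1 CPM, and the VTA log2 fold change was -1.16 ± 1.10 with all libraries and 1.30 ± 0.46 without WT library VTA 3 (edgeR adjusted p = 0.67 and 0.111). The test that the Gabrd difference varied between regions did not pass (edgeR adjusted p = 0.645 with all libraries and 0.258 without the 8).

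Between WT regions Gabrd was highest in STR, at 130 ± 21 CPM, and 1.83 ± 0.58 above the mean of the other WT regions in log2 (edgeR adjusted p = 0.0366). Without the WT libraries Nac 2 and VTA 3 its WT order was STR, Nac, PFc, HP, SN and VTA. In that order HP and SN were the only neighbours whose ranges overlapped, and VTA had 5.38 ± 0.43 CPM (n = 2). The F test between WT regions then gave an edgeR adjusted p of 3.87e-06, against 0.121 with all WT libraries.

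Gabre and Gabrq, the epsilon and theta subunit genes on the X chromosome, had their largest edgeR-tested KI over WT differences in STR; Gabre was too low to be tested in HP and PFc. Their RefSeq promoter windows (GRCm38.p6) are printed because the pair also followed each other over the libraries, with GC boxes in capitals; the Gabre window is chrX:72274672-72274971 on the minus strand and the Gabrq window chrX:72824928-72825227 on the plus strand.
Gabre: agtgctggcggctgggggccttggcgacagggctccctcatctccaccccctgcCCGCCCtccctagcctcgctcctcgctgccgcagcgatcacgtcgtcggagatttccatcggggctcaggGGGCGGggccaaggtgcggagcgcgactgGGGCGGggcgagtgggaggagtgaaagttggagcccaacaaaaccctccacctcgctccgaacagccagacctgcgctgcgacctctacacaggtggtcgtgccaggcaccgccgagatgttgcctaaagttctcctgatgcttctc
Gabrq: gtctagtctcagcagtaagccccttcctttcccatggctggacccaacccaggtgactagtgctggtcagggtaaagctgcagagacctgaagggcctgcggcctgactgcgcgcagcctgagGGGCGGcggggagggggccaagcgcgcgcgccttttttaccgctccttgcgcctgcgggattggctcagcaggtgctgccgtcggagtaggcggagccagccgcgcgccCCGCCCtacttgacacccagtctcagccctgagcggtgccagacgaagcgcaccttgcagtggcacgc
The Gabre window held 3 GC boxes and 24 CG pairs at 66.7% G and C, and the Gabrq window 2 GC boxes and 23 CG pairs at 67%. Neither held TATAAA, TGACGTCA or CACGTG. Of the other members, Gabrg1, Gabrb1 and Gabrg3 also have RefSeq windows, 6 of the 7 members in all.

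In STR, Gabrq measured 24.3, 6.98 and 14.2 CPM in KI libraries and 3.72, 4.19 and 2.47 CPM in WT libraries. Gabre measured 6.92, 2.97 and 1.7 CPM in KI libraries and 0.548, 0.982 and 0.368 CPM in WT libraries, from 126, 54 and 29 counts and 10, 19 and 7 counts in the same order. For both genes every KI library was above every WT library. The log2 fold change was 2.14 ± 0.44 for Gabrq (edgeR adjusted p = 0.265; DESeq2 adjusted p = 0.000137) and 2.61 ± 0.59 for Gabre (edgeR adjusted p = 0.271; DESeq2 adjusted p = 0.00269). Without KI library STR 3 the values were 2.18 ± 0.50 for Gabrq and 2.96 ± 0.50 for Gabre (DESeq2 adjusted p = 0.00233 and 0.000222). In the authors' deposited table Gabrq stood at 2.13 with a q-value of 0.000166 and Gabre at 2.62 with a q-value of 0.00323.

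Part of a hypothalamic marker list was also higher in KI STR. The 14 listed hypothalamic genes summed to 199, 76.1 and 383 CPM in KI STR libraries and 64.7, 89.2 and 52.7 CPM in WT STR libraries, with no gene of the list at 0. Of the 14, 4 (Irs4, Sim1, Cartpt and Calcr) were higher in all 3 KI STR libraries and were called higher by DESeq2. The part of such tissue in the STR differences was not tested. The choroid plexus list summed to 9750, 10700 and 3610 CPM in KI STR libraries and 11800, 16500 and 11100 CPM in WT STR libraries, and the thalamic and habenular list to 1030 to 1250 CPM in KI and 550 to 1490 CPM in WT.

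**Figure D3:**
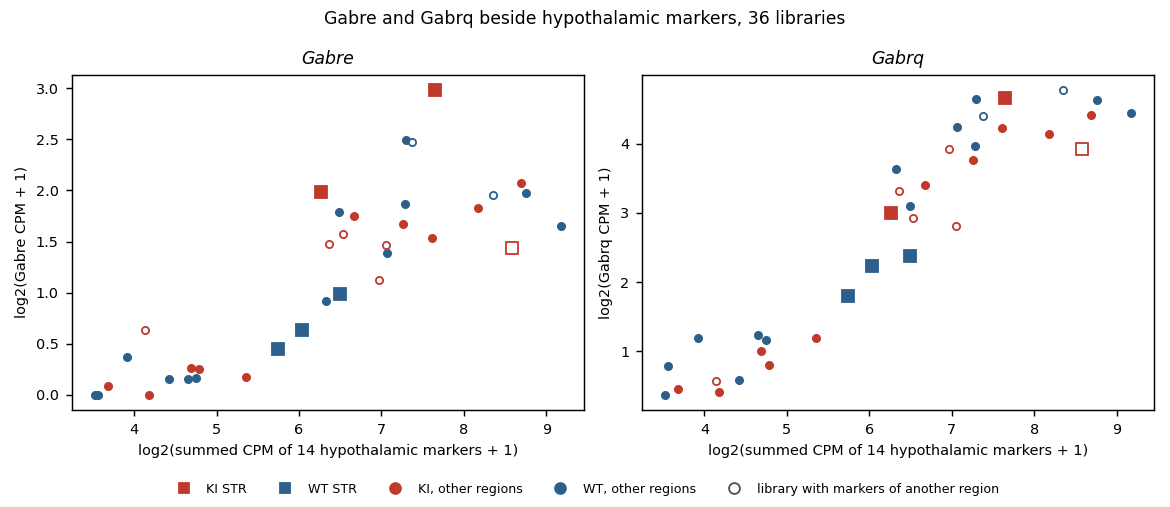
log2(CPM + 1) of Gabre (left) and Gabrq (right) in each of the 36 libraries against log2 of the summed CPM of 14 hypothalamic markers plus 1; squares are STR libraries, red KI and blue WT, and open symbols the libraries with markers of another region. Both genes are near 0 where the marker sum is low (HP and PFc), and the 3 KI STR squares lie above the 3 WT STR squares on both vertical axes.

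Outside STR neither gene was called. In Nac all 3 KI libraries were below all 3 WT libraries for Gabre (1.18, 0.557 and 2.36 CPM in KI and 2.46, 2.89 and 2.65 CPM in WT), where 4.19% of genes were without overlap; the log2 fold change was -0.99 ± 0.52, and -0.15 ± 0.38 with the 1 KI and 2 WT libraries left once the others were set aside. In SN Gabrq measured 8.94, 6.63 and 12.5 CPM in KI libraries and 17.8, 11.4 and 24.1 CPM in WT libraries, at -0.93 ± 0.34 (edgeR adjusted p = 0.227) and -0.51 ± 0.42 without KI libraries SN 1 and SN 2. In VTA it measured 17.7, 20.3 and 16.7 CPM in KI libraries and 23.8, 20.7 and 20.1 CPM in WT libraries, at -0.25 ± 0.14. In HP libraries Gabre had 0 to 5 counts and Gabrq 5 to 22 counts, except in KI library HP 2. That library had 6.03 CPM of Gabrq and 1.77 CPM of Gabre. In PFc Gabre had 2, 3 and 3 counts in KI libraries and 2, 2 and 2 counts in WT libraries, at or under 3 counts in all 6, so no fold is given. The test of genotype by region gave edgeR adjusted p = 0.563 for both genes (unadjusted 0.019 for Gabre and 0.032 for Gabrq).

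The regional pattern of both genes was steep. In WT, Gabrq averaged 21.6 ± 2.0 CPM in VTA, 17.8 ± 6.3 in SN, 16.2 ± 9.5 in Nac, 3.46 ± 0.89 in STR, 1.03 ± 0.46 in PFc and 0.771 ± 0.49 in HP (SD, n = 3 each; edgeR's F test, adjusted p = 9.08e-06). With all WT libraries, VTA, SN and Nac overlapped in range and so did PFc and HP, while STR overlapped neither. Against the mean of the other WT regions Gabrq stood at 2.50 ± 0.30 in VTA, 2.16 ± 0.30 in SN and -3.26 ± 0.48 in HP on the log2 scale (edgeR adjusted p = 0.00077, 0.00191 and 0.000124). Gabre was lowest in HP in WT, at 0.0971 ± 0.17 CPM, and had its highest WT mean in VTA, at 3.21 ± 1.2 CPM (edgeR's F test between regions, adjusted p = 0.000293). Without WT libraries VTA 3 and Nac 2, Gabre had 2.56 ± 0.13 CPM in Nac and 2.54 ± 0.56 CPM in VTA (n = 2 each) and 2.38 ± 2.0 CPM in SN (n = 3), with overlapping ranges. Gabrq then had 11.1 ± 5.0 CPM in Nac and 22.3 ± 2.2 CPM in VTA (n = 2 each). These Nac and VTA ranges of Gabrq did not overlap each other, while its SN range overlapped both. In KI, STR was the region with the highest Gabre mean, at 3.86 ± 2.7 CPM, and ranked just under VTA for Gabrq, at 15.2 ± 8.7 CPM.

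**Figure D4:**
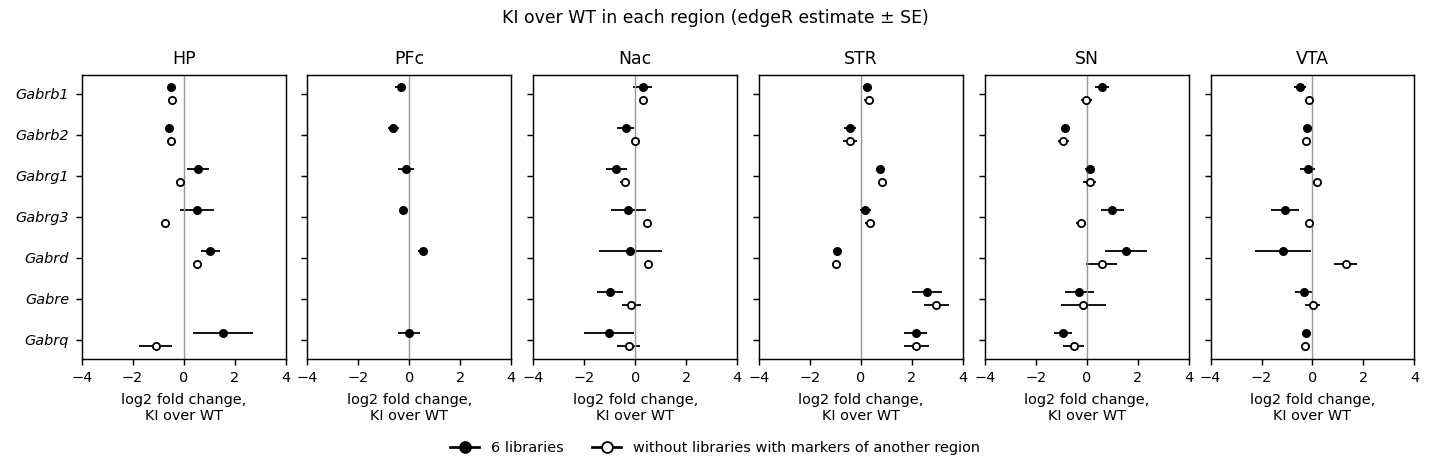
log2 fold change of KI over WT for each member in each region (edgeR estimate, bars are SE), with all 6 libraries (filled) and without the libraries with markers of another region (open). STR is the region where filled and open points stay together away from 0 for Gabrg1, Gabrd, Gabre and Gabrq, whereas Gabrg3 and Gabrq in HP and Gabrd in VTA change side; Gabre was not tested in HP or PFc.

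How the members varied together was described over the 36 libraries, which share regions, depth and tissue make-up. Gabre and Gabrq had a Pearson r of 0.93 (0.955 over the 28 libraries without the 8), Gabrg1 had r = 0.755 with Gabre and 0.74 with Gabrq, and Gabrd had 0.714 with Gabrg3. Gabrb1 ran opposite to Gabrq (r = -0.66). Among 12628 genes compared, Irs4 and Baiap3 were the most alike to both Gabre (r = 0.946 and 0.939) and Gabrq (r = 0.98 and 0.973); Irs4 is one of the hypothalamic markers above. Ankrd63 (r = 0.901) and Kcnh4 (0.897) were most alike to Gabrd, Cntnap3 (0.942) to Gabrg3, Arhgap6 (0.879) to Gabrg1, Tnpo3 (0.959) to Gabrb1 and Akap10 (0.905) to Gabrb2.

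The estimated counts per transcript summed to each gene's count within 0.01. Gabrb1, Gabrd and Gabrg1 came almost wholly from 1 RefSeq transcript each (95.7%, 95.8% and 98.6% of their counts over all libraries). For Gabrb2, NM_001362646 held 83.3% and NM_008070 11%. The NM_008070 share was 18.2% ± 1.8 in KI HP and 17.5% ± 8.5 in WT HP, and 6.78% ± 4.7 in KI PFc against 18.5% ± 6.2 in WT PFc (SD, n = 3 each), where the libraries ran from 1.43% to 9.77% in KI and from 12.2% to 24.5% in WT. Gabrg3 was divided between NM_008074 (58.2%) and XM_017321978 (41.8%), but the NM_008074 share ran from 0% to 100% in single libraries of both SN groups, so its division between the pair was unstable from library to library. Gabrq came mainly from NM_001290435 (61.4%), with 67.1% ± 2.4 in KI STR and 61.4% ± 35 in WT STR, and Gabre mainly from XM_011247523 (70.7%), with 75.2% ± 8.5 in KI STR and 79.3% ± 16 in WT STR. No test was made on transcript shares.

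The rest of the GABA system gives the setting. Of 9 other GABA-A subunit genes listed, edgeR tested 6 in VTA, 4 in PFc and 5 in each other region, and called none. DESeq2 called 1 lower in HP (Gabra2, log2 fold change -1.39 ± 0.17, adjusted p = 1.04e-11), 1 lower in PFc (Gabra2 at -1.17 ± 0.26), and 2 lower and 1 higher in VTA. In VTA the lower ones were Gabra2 (-1.35 ± 0.31) and Gabra5 (-0.93 ± 0.26), and the higher one was Gabra6, with 14.7 ± 15 CPM in KI and 0.11 ± 0.11 CPM in WT (SD, n = 3 each). In STR it called none of the 5 it tested, beside 1.38% of all genes and 4 of 7 members. In SN it called 2 higher, Gabra5 (1.46 ± 0.48) and Gabra4 (1.01 ± 0.33), and 1 lower (Gabrr2 at -2.25 ± 0.64). None of these 3 was called by DESeq2 without KI libraries SN 1 and SN 2, whereas Gabrb2 was. In the sums it called 1 higher, Gabra6, and 2 lower, Gabra2 (-0.94 ± 0.11) and Gabrr2 (-1.15 ± 0.34), of the 6 tested. Without the libraries with markers of another region edgeR also called Gabra2 lower in HP (-1.26 ± 0.12, adjusted p = 0.0111), and Gabra2 and Gabra5 lower in VTA (-0.93 ± 0.10 and -0.67 ± 0.13).

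Of 8 genes for GABA synthesis, transport and breakdown, DESeq2 called Gad1, a GABA-synthesising enzyme, lower in STR (424 ± 65 CPM in KI and 797 ± 147 CPM in WT, SD, n = 3 each; adjusted p = 0.00077) and no other in any region with all libraries. Of 14 anchoring and trafficking genes it called Hap1, which binds beta subunits and aids receptor recycling, higher in STR (286 ± 85 CPM in KI and 122 ± 48 CPM in WT; adjusted p = 0.00391) and Shisa7, a receptor-associated membrane protein, higher in SN (log2 fold change 1.73 ± 0.37). DESeq2 did not call Shisa7 without KI libraries SN 1 and SN 2, which had markers of another region. Of 4 genes for the GABA-B receptor and chloride transport it called Slc12a5, the neuronal chloride extruder, lower in VTA (-0.54 ± 0.15). edgeR called no gene of these lists with all libraries. Without KI library HP 2 it called Hap1 lower in HP (-0.94 ± 0.11, adjusted p = 0.012; 0.42% of genes called), opposite in direction to STR. DESeq2 without HP 2 called Hap1, Gad1, Gad2 and Gabbr2 lower there, beside 6.4% of genes. Without WT library VTA 3 edgeR called Gad2 (-0.46 ± 0.11), Slc32a1, the vesicular GABA transporter (-0.43 ± 0.10), and Slc12a5 (-0.58 ± 0.11) lower in VTA. It called 5.72% of genes there. DESeq2 without VTA 3 also called Gad1, Gabbr2, Clptm1, Lhfpl4 and Nlgn2 lower and Slc12a2 higher (0.63 ± 0.16, adjusted p = 0.0027), beside 13.1% of genes. Slc32a1 and the genes named only from DESeq2 without these libraries were added after their values were seen, beyond the limit of 5 such genes per region. The median log2 fold change of the other subunits by edgeR was -0.47 in STR, 0.16 in SN, -0.56 in HP, -1.14 in VTA, -0.62 in Nac and -0.22 in PFc, beside the medians over all genes given above.

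Other markers moved with some of the groups in which members differed, and their part was not tested. In STR the 8 interneuron markers summed to 430 to 672 CPM in KI and 874 to 975 CPM in WT, with Kcnc1 called lower by DESeq2, and the 10 oligodendrocyte markers to 19000 to 25800 CPM in KI and 13800 to 16700 CPM in WT, with Mbp called higher. In HP the 10 oligodendrocyte markers summed to 10000 to 13200 CPM in KI and 4090 to 5100 CPM in WT, with 9 of 10 higher in all KI libraries, and the 8 microglial markers to 622 to 641 CPM in KI and 355 to 471 CPM in WT. In PFc the microglial sum was 826 to 1010 CPM in KI and 477 to 686 CPM in WT. In VTA the oligodendrocyte sum was 25500 to 36800 CPM in KI and 13800 to 19000 CPM in WT. In SN, beside the low Gabrb2, 7 of 7 hindbrain glycine markers were lower in all KI libraries, summing to 0.124 to 1.86 CPM in KI and 40.7 to 162 CPM in WT. The 10 serotonin and noradrenaline neuron markers summed to 44.5 to 90.7 CPM in KI SN and 94.4 to 177 CPM in WT SN, with 6 called lower by DESeq2, and the interneuron markers to 399 to 667 CPM in KI SN and 683 to 710 CPM in WT SN, with 3 called higher and 1 lower. None of the markers of these lists was at 0 throughout its region. The neuronal list summed to 5100 to 8870 CPM in KI SN and 7580 to 8060 CPM in WT SN. Of the KI SN libraries, SN 1 and SN 2 had markers of another region. In KI library SN 3 the hindbrain glycine markers summed to 1.86 CPM and the serotonin and noradrenaline neuron markers to 90.7 CPM. Its interneuron markers summed to 453 CPM and its neuronal list to 6650 CPM.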

How the data were processed

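RNA of 6 brain regions was sequenced in KI and WT mice, 3 libraries per group, using a SMARTER kit (per the labels' protocols). The submitters' processing notes name GRCm38.p6. Which aligner and counter were run, and whether strand was used, is not given in the sources used here. The deposited gene and transcript tables hold estimated counts (9.9% of gene values not whole) and TPM, per the file headers. TPM values were scaled by the authors to gene length and library total; counts were rounded here before tests. The authors' deposited table of comparisons holds log2 fold changes with DESeq2 q-values and p-values (from its column names); its direction, KI over WT, was read from the sign against the deposited counts. Symbols come from the files; 18969 of 19025 genes matched RefSeq. A further 180 per-sample columns were not used.

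Genes kept by filterByExpr were TMM-scaled. The main test was the quasi-likelihood test of edgeR 4.0.16, with p adjusted by Benjamini-Hochberg over all genes tested and a threshold of 0.05; "called" means past it. A region's fit used only its 6 libraries. Counts were also summed over regions per genotype and title number, genotype by region was tested over 36 libraries, and regions were compared by F test within each genotype. DESeq2 1.42.0, RLE size factors, no filter, the title number as a block, each library left out, region as a term and removal of the 8 libraries were alternatives; 2 of them (DESeq2 and the region term without the 8) were added after the data were seen. Where an adjusted p was missing in DESeq2, the gene counts as not tested. Marker scores are mean log2(CPM + 1). The tests were tried on simulated counts with 200 changed genes. R 4.3.3, limma 3.58.1, Python 3.11.15 and matplotlib 3.10.9 were used.

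The members, gene lists, tests and the 8 libraries were chosen with earlier results of these data known, so they are not independent of them. Named genes are all 7 members, other listed GABA genes called between genotypes (at most 5 per region by lowest p) and the genes most alike over libraries (Pearson r of log2 CPM, prior count 2, among genes with a mean of at least 1). Some other GABA-A subunit genes are not reported here and stand in no list count. No library was a copy of another (highest r = 0.992). The floor of 3 counts covers counting error only, whereas ± values are SEs of log2 fold changes or SDs between libraries.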

Additional observations from a re-analysis of the deposited data

Results flagged for a closer look

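Gabrd was higher in every KI library than in every WT library in HP (log2 fold change 1.05) and in PFc (0.52), and lower in every KI library in STR (-0.94). Gabre was lower in every KI library in Nac (-0.99), higher in every KI library in STR (2.61), and higher in every KI library in PFc, where all 6 libraries had 3 counts or fewer. These opposite directions were not tested pair by pair. The test of genotype by region over 36 libraries gave edgeR adjusted p = 0.645 for Gabrd and 0.563 for Gabre. KI and WT libraries did not overlap, in either direction, for 23.9% of genes tested in HP, 28.5% in PFc, 17.7% in STR and 4.19% in Nac. Without the 8 libraries with markers of another region the Nac value of Gabre was -0.15 and the HP value of Gabrd 0.54, while the STR values were 2.96 and -0.97.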

How the results depend on the processing

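With edgeR, no member was called between genotypes under RLE size factors, no filter, the replicate block or any left-out library, and the same held for genotype by region. Adding the other tool changed this: DESeq2 called 4 members in STR, 1 in SN, 1 in the sums and, between KI regions, 2, and without the 8 libraries 3 in HP, 4 in STR and 1 in SN. With region as a term, edgeR called 1 member over 36 libraries and 1 over 28. Between regions, members called in KI ran from 0 to 2 over left-out replicates, beside 8 of 15139 to 1977 of 15144 genes. They numbered 5 without the 8 libraries, beside 7791 of 15434 genes. In WT they ran from 3 to 6 over left-out replicates, beside 2156 of 15132 to 5897 of 15138 genes. Over all genes the counts differed in the same way: edgeR called 0 in every region and DESeq2 990 in SN, 362 in PFc, 259 in HP, 210 in STR, 185 in VTA, 2 in Nac and 1356 in the sums. The causes were not tested.

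Log2 fold changes that turned sign without the 8 libraries (DESeq2 without them in brackets) were, in HP, Gabrg1 at -0.15 (-0.16), Gabrg3 at -0.73 (-0.74) and Gabrq at -1.09 (-1.12), in Nac, Gabrb2 at 0.0031 (0.0081), Gabrg3 at 0.47 (0.47) and Gabrd at 0.51 (0.51), in SN, Gabrb1 at -0.023 (-0.027) and Gabrg3 at -0.24 (-0.24), and in VTA, Gabrg1 at 0.18 (0.18), Gabrd at 1.30 (1.30) and Gabre at 0.013 (0.015). Gabrq in PFc, at 0.0015, was -0.0021 with RLE, -0.0060 with no filter and -0.0085 with DESeq2. In the sums, the region term gave Gabrg1 0.059 and Gabrq 0.16 over 36 libraries, and Gabrg1 0.11, Gabrg3 -0.11 and Gabrq 0.26 over 28.

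Over left-out libraries the values that turned sign ran, in HP, from -0.15 to 0.82 for Gabrg1, -0.73 to 0.93 for Gabrg3 and -1.09 to 2.12 for Gabrq, and in PFc from -0.46 to 0.17 for Gabrg1 and -0.33 to 0.24 for Gabrq. In Nac they ran from -0.035 to 0.62 for Gabrb1, -1.39 to 0.13 for Gabrg3 and -1.76 to 0.36 for Gabrd, and in SN from -0.033 to 0.23 for Gabrg1 and -0.66 to 0.66 for Gabre. In VTA they ran from -0.38 to 0.18 for Gabrg1, -1.66 to 1.30 for Gabrd and -0.56 to 0.013 for Gabre. In the sums they ran from -0.13 to 0.058 for Gabrb1, -0.10 to 0.065 for Gabrg1, -0.21 to 0.21 for Gabrg3, -0.14 to 0.27 for Gabrd and -0.34 to 0.0069 for Gabrq.

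Between KI and WT, title numbers did not meet the criterion for pairing: 5 of 18 same-numbered pairs had deviations correlated above 0.1 (-0.603 to 0.609), and in 0 of 6 regions did all 3. Between regions, 14 of 45 pairs in KI and 19 of 45 in WT did, with all 3 pairs in 1 of 15 region pairs each (PFc with Nac in KI, HP with SN in WT). The replicate block moved no count of member calls; it gave Gabrb2 in the sums -0.54 (edgeR adjusted p = 0.217) and turned Gabre in SN to 0.016. PFc held none of the 8 libraries, and sums without them were not run, since they would cover different regions.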
